A study of Mus musculus with 12 samples.

Results

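The genes described here are 64 transcripts, of 53379 genes in the table, whose level stood above that of unstimulated cells when a 6 h exposure of mouse lymphoma cells to interferon-γ (IFN-γ) had been ended with a blocking antibody. The cells are an Eµ-myc B cell lymphoma line of the C57BL/6 strain, whose Myc transgene is under the enhancer of the antibody heavy chain locus, and all groups share it. The 4 groups hold 3 libraries each. They are unstimulated cells and cells given recombinant mouse IFN-γ at 5 ng/mL with an exposure of 1 h, 6 h or 24 h, the shorter exposures ended by an anti-mouse-IFN-γ neutralising antibody (clone XMG1.2) at 50 µg/mL, with harvest at 24 h. The labels do not say whether unstimulated or 24 h cells received antibody, when unstimulated cells were harvested, or whether the libraries of a group came from separate cultures. Antibody and brief cytokine therefore cannot be told apart where 1 h or 6 h cells are set against unstimulated cells. Nor can antibody and shorter exposure where 1 h or 6 h cells are set against 24 h cells. The retained share, defined below, carries both limits. P-values measure only the spread between these libraries, which may be technical.

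The members were chosen by measured values. Each count was divided by the total of its library, put on the usual CPM scale and averaged by group. A gene was kept if its mean over the 12 libraries was at least 5 CPM, its 24 h mean was at least 1.3 times its unstimulated mean, its lowest 6 h library lay above its highest unstimulated library, and its retained share lay between 0.2 and 1. The retained share is the rise of the 6 h mean over the unstimulated mean divided by the same rise after 24 h, and is given below in percent. Of 8949 genes that passed the limit of 5 CPM, 380 met the 24 h criterion, 128 of those also had separated 6 h libraries, and 73 met every criterion. The rule then left out 9 genes by name or family (H2-Q4, H2-K1, H2-D1, H2-T10, H2-Eb2, B2m, Slfn10-ps, Trp53inp1 and Btg2), which gave 64. Values of the unstimulated, 6 h and 24 h libraries are thus a description, while the 1 h libraries entered the choice only through the mean over 12 libraries.

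IFN-γ binds a receptor that activates the kinases JAK1 and JAK2, which phosphorylate transcription factors of the STAT family. STAT dimers bind gamma-activated sites and induce, among others, the transcription factor IRF1, which acts on interferon-stimulated response elements, while SOCS1 feeds back on the kinases. Among the genes that the pathway raises are those of antigen presentation and antiviral defence. RNA was read at harvest only, so the level at the moment the antibody was added was not measured.

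Sequences at gene starts are shown for 4 members, Cybb, Tcirg1 and Prodh because they hold interferon-type motifs and Col27a1 because its level changed most. They are RefSeq windows on GRCm38.p6, from 250 bases before a start to 50 bases after it. The motifs searched on both strands were TTCNNNGAA for a gamma-activated site and GAAA followed after any 2 bases by a second GAAA for an interferon-stimulated response element, and capitals mark the matches. The window of Cybb at chrX:9469275-9469574 (minus strand) held 3 matches to the second motif, and that of Tcirg1 at chr19:3905181-3905480 (minus strand) held 1, while the other 2 windows of Tcirg1 held none. The window of Prodh at chr16:18089141-18089440 (minus strand) held 1 match to the first motif, and that of Col27a1 at chr4:63215162-63215461 (plus strand) held none.
Cybb: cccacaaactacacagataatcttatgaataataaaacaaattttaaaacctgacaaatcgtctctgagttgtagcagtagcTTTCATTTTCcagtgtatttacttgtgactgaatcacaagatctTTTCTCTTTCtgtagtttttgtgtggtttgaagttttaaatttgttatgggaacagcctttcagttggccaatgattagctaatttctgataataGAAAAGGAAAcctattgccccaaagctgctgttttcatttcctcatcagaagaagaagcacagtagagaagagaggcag
Tcirg1: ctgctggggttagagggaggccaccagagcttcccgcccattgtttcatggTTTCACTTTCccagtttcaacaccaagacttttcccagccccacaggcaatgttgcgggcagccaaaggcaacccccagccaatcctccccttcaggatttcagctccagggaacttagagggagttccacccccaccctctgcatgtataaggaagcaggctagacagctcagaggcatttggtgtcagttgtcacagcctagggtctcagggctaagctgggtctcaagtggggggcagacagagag
Prodh: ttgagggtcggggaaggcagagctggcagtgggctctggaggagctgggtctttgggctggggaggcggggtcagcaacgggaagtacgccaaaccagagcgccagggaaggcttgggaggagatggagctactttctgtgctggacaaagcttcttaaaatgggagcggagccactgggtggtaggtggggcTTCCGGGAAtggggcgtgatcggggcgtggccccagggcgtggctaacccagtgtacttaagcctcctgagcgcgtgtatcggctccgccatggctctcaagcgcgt
Col27a1: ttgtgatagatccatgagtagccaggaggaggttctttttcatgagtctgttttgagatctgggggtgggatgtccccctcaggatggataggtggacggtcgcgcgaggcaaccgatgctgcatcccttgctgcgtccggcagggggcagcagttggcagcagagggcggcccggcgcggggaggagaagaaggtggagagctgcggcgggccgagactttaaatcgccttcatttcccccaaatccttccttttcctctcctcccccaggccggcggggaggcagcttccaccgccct

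Windows were found for 51 of the 64 members, 69 windows in all. The gamma-activated site was matched in 2 members (3.92%), Prodh and B4galt1, against 9.55% of all 27025 genes with a window and 16.2% of the other genes that met the 24 h criterion. These other genes, 247 with a window, include those that the rule leaves out by name or family. The response element was matched in 5 members (9.8%), Cybb, Clec2d, Fam169b, Tcirg1 and Trim5, against 3.99% and 18.2%. No member held both motifs. Of genes with a window at 5 CPM or more, the level the members had to reach, 7.99% matched the first motif and 3.68% the second. By gene, either motif was matched in 13.7% of members and 12.9% of all genes with a window. It was matched in 11.1% of those at 5 CPM or more and in 28.7% of the other 24 h genes. By window, either motif was found in 10.1% of the members' windows and 11.3% of all windows. It was found in 9.22% of the windows of genes at 5 CPM or more and 23.1% of those of the other 24 h genes. A match is a run of letters and no measure of binding.

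Library totals ran from 49440358 to 67096610 counts, and the lowest count of a member in any library was 184. Replicate 3 of the 6 h group stood farthest from the rest of its group, by chi-square statistics of 7.84 and 7.88 per degree of freedom on counts halved to read pairs, where replicates 1 and 2 gave 2.41. The other groups also held a library that lay apart by a smaller gap, 24 h replicate 3 (6.73 and 5.8, against 3.11), 1 h replicate 1 (6.22 and 5.04, against 3.6) and unstimulated replicate 2 (5.37 and 6.12, against 3.82). Without 6 h replicate 3, 75 genes met the rule, 58 of them among the 64, under an order criterion with fewer libraries to separate. The B cell markers Cd79a, Cd79b, Ms4a1, Pax5 and Blnk were all above 1 CPM in each group. Their summed level was 1560.2 to 1606 CPM in unstimulated cells, 1514 to 1562 CPM after 1 h, 1517 to 1672 CPM after 6 h and 1353 to 1410.0 CPM after 24 h, lowest after 24 h without overlap. The markers did not move alike, since edgeR called Pax5, Blnk and Cd79a lower after 24 h than in unstimulated cells and Ms4a1 higher (means of 8.59 and 13 CPM). In such bulk RNA, fewer cells of a type and less RNA per cell cannot be told apart.

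Most of the 64 genes moved little. The ratio of the 24 h to the unstimulated mean ran from 1.3 to 3.12 with a median of 1.46, and 6 members reached 2. The ratio after 6 h ran from 1.07 to 1.67 with a median of 1.2, where the median of all genes at 5 CPM or more was 0.994. Col27a1, Cybb and Gm43300 reached 1.5, 50 members lay between 1.1 and 1.3, and 8 lay under 1.1. The retained share had a median of 40%, with 23 members under 30% and 19 at 50% or more. Its standard error had a median of 9.5 percentage points, and for 34 members the share less 1.96 standard errors was under the limit of 20%. For 267 other genes that met the 24 h criterion, without those left out by name or family, the median share was 4.8%. These values follow from the rule and are given without a test.

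**Figure D1:**
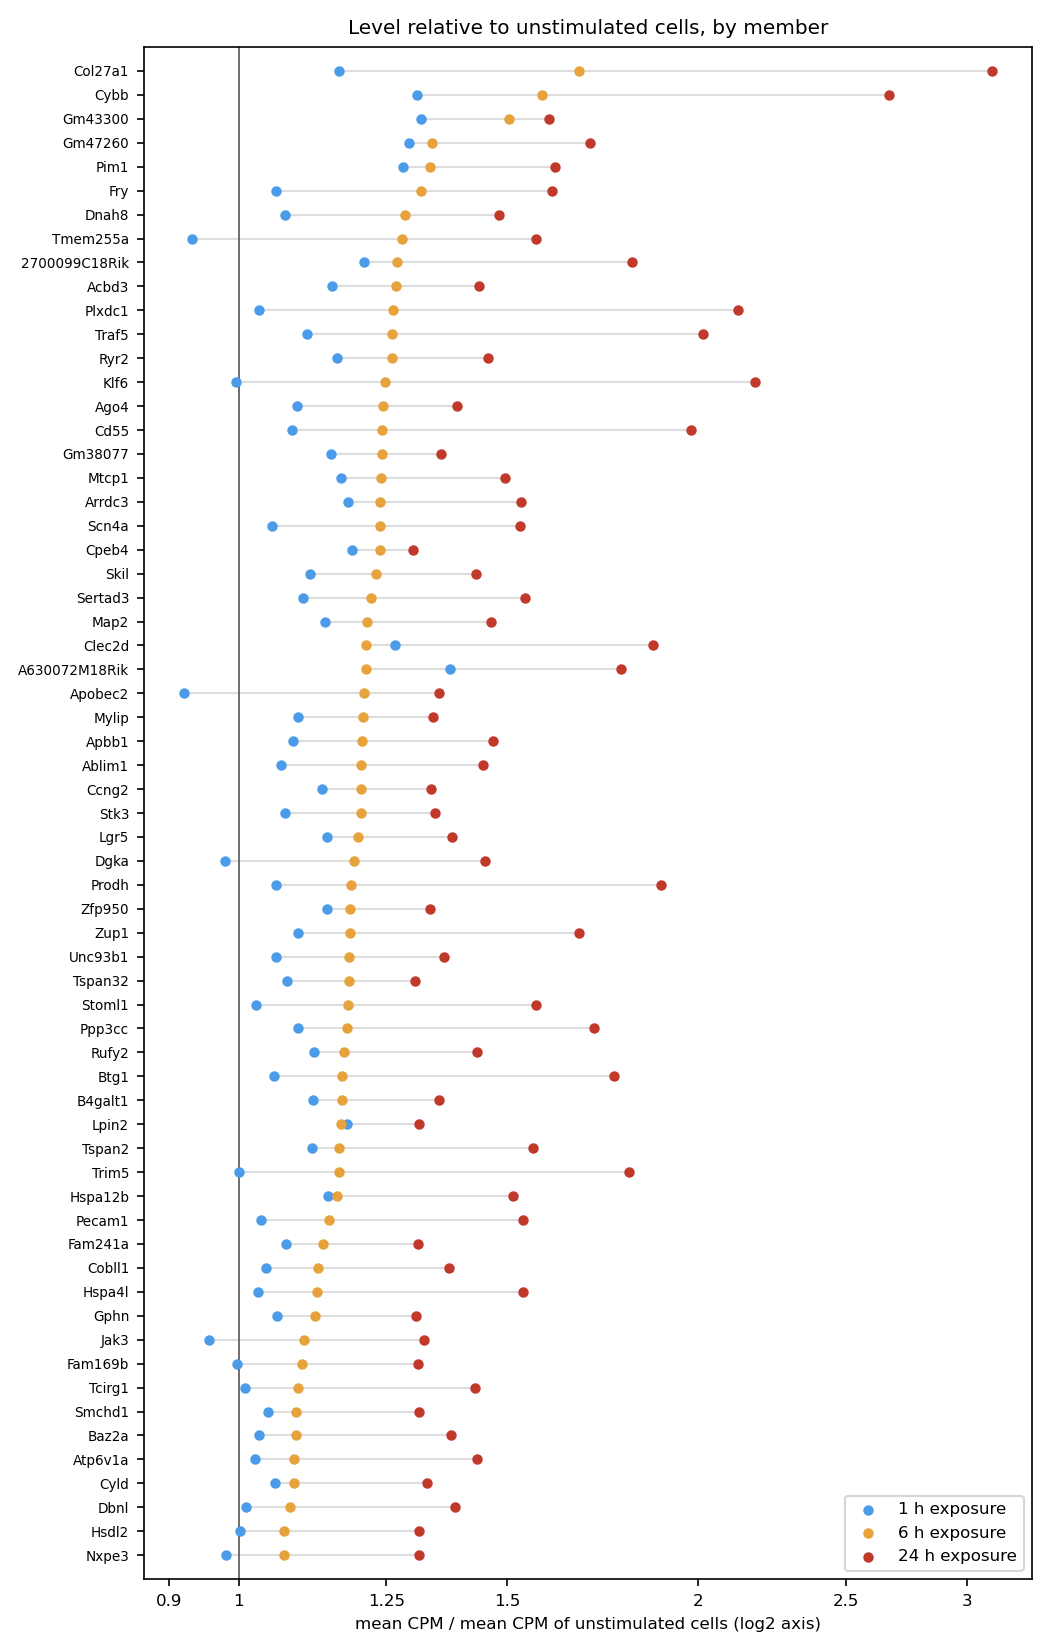
Mean CPM of 63 members after 1 h, 6 h and 24 h exposure divided by the unstimulated mean, on a log2 axis. Col27a1 and Cybb lie far to the right after 24 h at 3.12 and 2.67, while most of the 6 h points lie between 1.1 and 1.3.

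Among 8 surface, adhesion and matrix genes, Col27a1 encodes a fibrillar collagen chain (ENSMUSG00000045672.15, chromosome 4, 63214004 to 63334991 on mm10) and had the largest ratio after 6 h and after 24 h among the members. Its level was 9.57, 9.83 and 10.7 CPM in unstimulated cells, 10.5, 11.3 and 13.3 CPM after 1 h, 16, 16.7 and 17.7 CPM after 6 h and 31.7, 28.7 and 33.3 CPM after 24 h. The 6 h and 24 h libraries each formed a band of their own, while the 1 h libraries overlapped the unstimulated ones. The retained share was 31.7% ± 3.26 (SE), and 29.6% to 33.6% with 1 library left out at a time. Of the 6 stromal markers, which include the collagen genes Col1a1, Col1a2 and Col3a1, 0 were above 1 CPM in any group, and their summed level was at most 0.0721 CPM in any library.

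Cd55, a membrane protein that protects cells from complement, stood at 8.58, 10.6 and 9.07 CPM in unstimulated cells, 9.29, 10 and 11.4 CPM after 1 h, 12.2, 11.6 and 11.4 CPM after 6 h and 17.9, 20.4 and 17.7 CPM after 24 h. The 24 h libraries stood apart, and the 1 h libraries reached from the unstimulated range to just under the lowest 6 h value. Plxdc1, a membrane protein with a plexin domain, was at 11.8, 9.71 and 12.3 CPM in unstimulated cells, 10.2, 11 and 13.8 CPM after 1 h, 14.2, 13.8 and 14.8 CPM after 6 h and 22.9, 22.7 and 26.3 CPM after 24 h, with a share of 23.4% ± 5.78 (SE). Its 1 h libraries spread across the unstimulated range and touched the 6 h range. Clec2d, a ligand of an inhibitory receptor on natural killer cells, was at 6.45, 5.91 and 5.64 CPM in unstimulated cells, 7.77, 7.23 and 7.79 CPM after 1 h, 7.02, 6.77 and 8.02 CPM after 6 h and 11.8, 10.3 and 11.6 CPM after 24 h, so that the 1 h mean lay above the 6 h mean. Pecam1, an adhesion molecule of endothelial and blood cells, had means of 58.2, 60.2, 66.7 and 89.4 CPM in the order of exposure. Of 4 endothelial markers 3 had 0 counts in each group, and the summed level was 2.33 to 2.7 CPM in unstimulated and 2.27 to 2.9 CPM in 24 h cells. Lgr5, a receptor for R-spondins, and the tetraspanins Tspan2 and Tspan32 had ratios of 1.2, 1.16 and 1.18 after 6 h.

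Among genes of the oxidase, endosome and lysosome, Cybb encodes the catalytic subunit of the superoxide-producing NADPH oxidase of phagocytes and B cells (ENSMUSG00000015340.10, chromosome X, 9435252 to 9487771 on mm10). It was counted at 19.6, 19.7 and 22.9 CPM in unstimulated cells, 27.5, 27 and 26.8 CPM after 1 h, 33.9, 32.2 and 32.2 CPM after 6 h and 55.8, 58.1 and 51.8 CPM after 24 h. The 4 groups followed the order of exposure without overlap, and the share was 34.9% ± 3.25 (SE). Of 9 myeloid markers 2 were above 1 CPM in each group (Cd68 and Itgam), S100a8 and S100a9 were at 0 in every group and Adgre1 was at 0 in unstimulated and 1 h cells. The markers summed to 5.78 to 7.08 CPM in unstimulated cells, 5.71 to 6.94 CPM after 1 h, 6.16 to 6.93 CPM after 6 h and 5.33 to 6.27 CPM after 24 h, ranges that overlap.

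Unc93b1 carries nucleic acid sensing Toll-like receptors to endosomes. Its level was 71.2, 72.4 and 74.1 CPM in unstimulated cells, 72.2, 77.6 and 80.6 CPM after 1 h, 86.1, 89.2 and 82.1 CPM after 6 h and 96.2, 101 and 99.5 CPM after 24 h, with 6 h libraries between the 1 h and 24 h ones and a share of 50.1% ± 8.45 (SE). Tcirg1 and Atp6v1a encode subunits of the proton pump that acidifies lysosomes. Their ratios after 6 h were 1.09 and 1.09, and their shares, 22% and 20.1%, were near the lower limit. Tcirg1 and Unc93b1 lie 28053 bases apart on chromosome 19, on opposite strands.

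Of 9 signalling members, Pim1 encodes a kinase that favours survival and is induced by STAT factors in lymphoid cells. It was at 33.8, 32.7 and 33.4 CPM in unstimulated cells, 45.3, 41.8 and 41 CPM after 1 h, 45.6, 45.2 and 42.6 CPM after 6 h and 59.1, 48.6 and 53.3 CPM after 24 h. The 1 h and 6 h libraries overlapped, and both lay between the unstimulated and the 24 h libraries. Traf5, an adaptor of tumour necrosis factor receptors, was at 20.7, 19.9 and 22 CPM in unstimulated cells, 22.7, 24.1 and 22.7 CPM after 1 h, 25.6, 27.1 and 26.3 CPM after 6 h and 44.8, 39.1 and 42.4 CPM after 24 h, with groups in order and without overlap and a share of 25.6% ± 3.63 (SE).

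Jak3, the kinase of receptors with the common gamma chain and not of the IFN-γ receptor, was at 21.9, 21.1 and 21.3 CPM in unstimulated cells, 19.3, 19.6 and 22.6 CPM after 1 h, 22.8, 23.4 and 24.7 CPM after 6 h and 28.2, 27 and 29.8 CPM after 24 h. Its 1 h libraries lay on both sides of the unstimulated ones. Cyld, a deubiquitinase that restrains NF-κB signalling, had 6 h libraries of 87.1, 84.3 and 78.2 CPM beside unstimulated ones of 76.4, 76 and 77.1 CPM, so that 6 h replicate 3 lay just above the unstimulated range. Ppp3cc, a catalytic subunit of the phosphatase calcineurin, had a share of 25% ± 3.58 (SE). Fry, Stk3 and Dgka, the last a diacylglycerol kinase, had ratios of 1.32, 1.2 and 1.19 after 6 h.

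**Figure D2:**
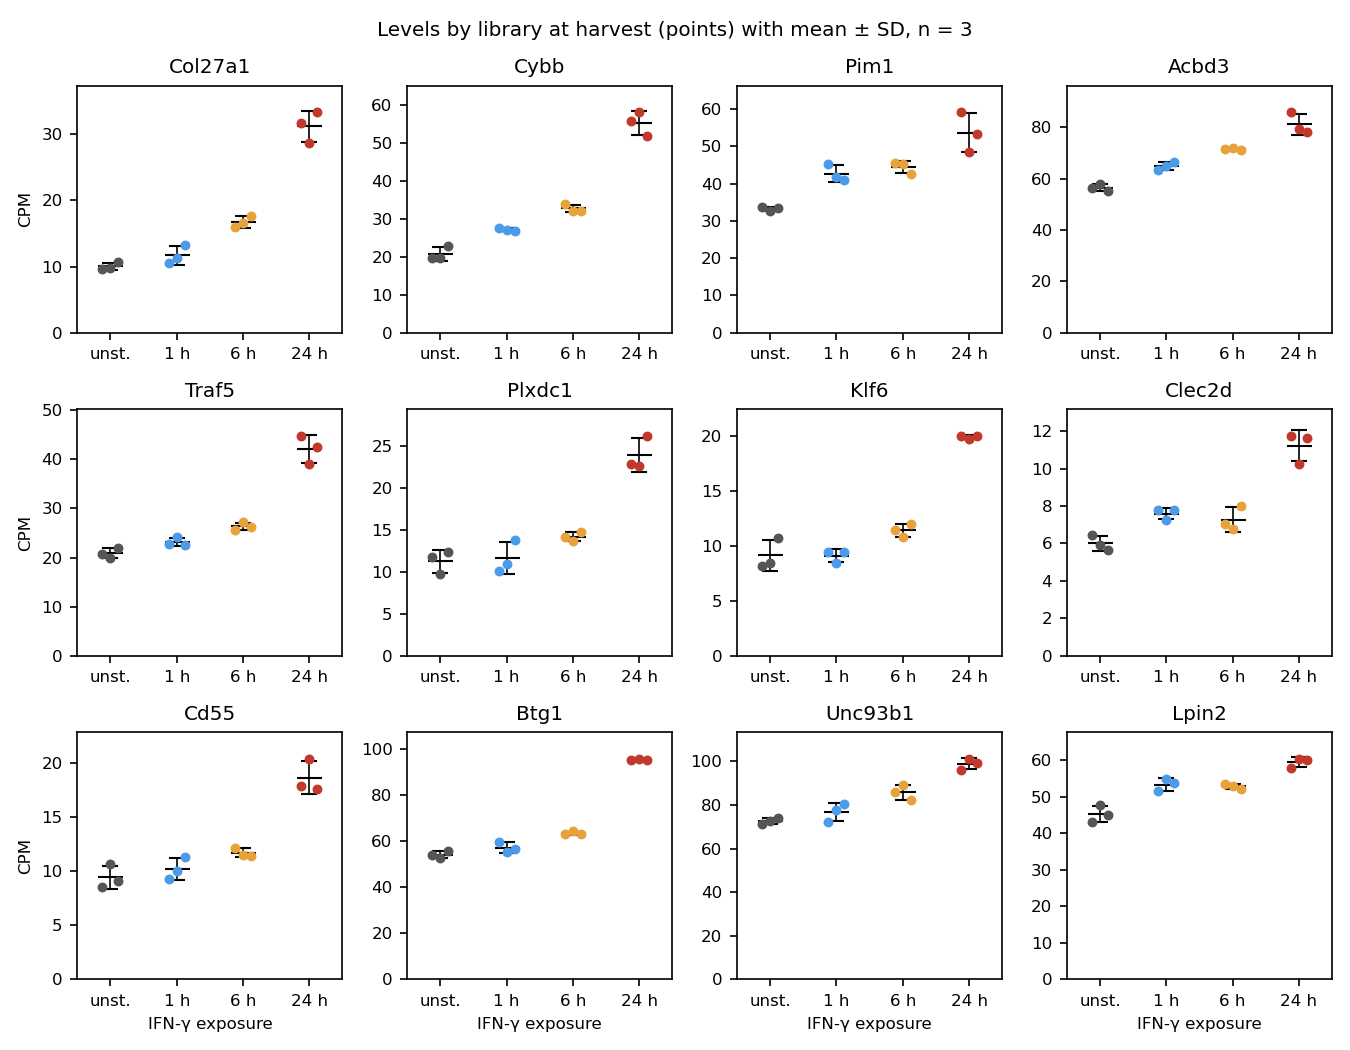
CPM of 12 members in each library (points, 3 per group) with group mean and SD (bars), by IFN-γ exposure, each axis starting at 0. Cybb, Acbd3 and Traf5 step up from group to group without overlap, while for Klf6 the 24 h libraries stand apart and the other groups lie close.

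Genes of transcription, growth restraint, chromatin and RNA numbered 11. Btg1, an antiproliferative gene, was at 53.9, 52.8 and 55.8 CPM in unstimulated cells, 59.6, 55.1 and 56.7 CPM after 1 h, 62.9, 64.2 and 62.9 CPM after 6 h and 95.2, 95.7 and 95.2 CPM after 24 h. Its libraries lay close within the 6 h and 24 h groups, and its share of 22.3% had the smallest standard error of the members, 1.96. Klf6, a zinc finger transcription factor, was at 8.22, 8.47 and 10.7 CPM in unstimulated cells, 9.48, 8.43 and 9.43 CPM after 1 h, 11.4, 10.8 and 12 CPM after 6 h and 20, 19.7 and 20 CPM after 24 h. Its highest unstimulated library nearly reached the lowest 6 h library, and it kept its place in 6 of the 9 selections that left out 1 library. It did not meet the rule with the trend on exon length removed, nor with that on GC content removed.

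Ccng2, a cyclin linked to cell cycle arrest, had means of 31.3, 35.5, 37.7 and 41.9 CPM in the order of exposure and a share of 60.1% ± 8.83 (SE). Skil, a repressor of SMAD signalling, had means of 48.8, 54.3, 60 and 69.8 CPM. Cpeb4, which binds control elements in messenger RNA, was at 10.4, 11.4 and 10.4 CPM in unstimulated cells, 12.7, 12.9 and 12.7 CPM after 1 h, 14.3, 13.6 and 12 CPM after 6 h and 13.5, 14.9 and 13.5 CPM after 24 h, with 6 h and 24 h libraries that overlapped and a share of 78.9% ± 24.8 (SE). The chromatin genes Smchd1 and Baz2a had ratios of 1.09 and 1.09 after 6 h, and neither met the rule with the trend on exon length removed. They were among 10 members lost in that way, with Klf6, Cpeb4, Cyld, Atp6v1a, Prodh and Dnah8. Smchd1 lies 94672 bases from Lpin2 on chromosome 17.

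Among metabolism, Golgi and membrane traffic genes, Acbd3, a Golgi scaffold protein, was at 56.4, 57.9 and 55.2 CPM in unstimulated cells, 63.5, 65.1 and 66.4 CPM after 1 h, 71.6, 72.1 and 71.3 CPM after 6 h and 85.8, 79.4 and 78.4 CPM after 24 h. Its groups followed the order of exposure without overlap, and its share was 61.4% ± 6 (SE). Lpin2, a phosphatidate phosphatase, was at 43.2, 47.7 and 44.9 CPM in unstimulated cells, 51.4, 54.8 and 53.6 CPM after 1 h, 53.4, 53 and 52.1 CPM after 6 h and 57.9, 60.3 and 60 CPM after 24 h, with the 1 h mean slightly above the 6 h mean. B4galt1, a galactosyltransferase of the Golgi, had means of 127, 142, 148 and 172 CPM. Prodh, which starts the breakdown of proline, was at 32.9, 28 and 31.7 CPM in unstimulated cells, 30.7, 32.3 and 35 CPM after 1 h, 34.6, 35.7 and 39.4 CPM after 6 h and 60.3, 56.1 and 59 CPM after 24 h, with a share of 20.6%. It overlaps Dgcr6 on the opposite strand, which itself went from 13.7 to 27.9 CPM between unstimulated and 24 h cells. The strand setting of the counting is not given in the sources used here, so reads of such a pair cannot be told apart. Among other pairs, the same holds for Dnah8 with Glo1, Tmem255a with Zbtb33, Rufy2 with Hnrnph3 and A630072M18Rik with Rsbn1l. It also holds for 2700099C18Rik with Gm1976, which had a mean of 17.3 CPM.

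Ion channel and cytoskeleton genes had ratios after 24 h of 1.31 to 1.53. Ryr2, an intracellular calcium release channel, was at 73, 69.5 and 79.8 CPM in unstimulated cells, 88.3, 83.9 and 85.7 CPM after 1 h, 99.2, 96 and 85.1 CPM after 6 h and 111, 106 and 107 CPM after 24 h, with 6 h replicate 3 inside the range of the 1 h libraries. Ablim1, which binds actin, was at 196, 196 and 199.8 CPM in unstimulated cells, 205, 211 and 215 CPM after 1 h, 246, 236 and 229.6 CPM after 6 h and 282, 284 and 290.3 CPM after 24 h, in order and without overlap. Dnah8, a dynein heavy chain, and Gphn, the scaffold protein gephyrin, had shares of 59.3% ± 13.5 (SE) and 40.1% ± 9.38 (SE). Trim5, a gene of the TRIM family, was grouped with ubiquitin, antiviral and heat shock genes. It was at 7.5, 7.65 and 7.5 CPM in unstimulated cells, 7.72, 7.02 and 7.92 CPM after 1 h, 9.17, 8.8 and 8.36 CPM after 6 h and 13.6, 13.4 and 13.8 CPM after 24 h. Its 1 h libraries spanned the unstimulated ones, and its share of 20.3% ranged from 17.1% to 23.7% with 1 library left out.

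Of the 64 members 59 are annotated as protein coding. Among the other 5, Gm43300, Gm47260 and Gm38077 lie inside Ptbp2, Ddx24 and Mrpl3 on the same strand, and their counts may hold reads of those genes. Gm43300 had the largest share, 84.1% ± 45.5 (SE), with 6 h libraries of 6.56, 7.53 and 4.42 CPM above an unstimulated maximum of 4.35 CPM. A630072M18Rik was at 4.47, 4.37 and 5.05 CPM in unstimulated cells, 5.97, 5.95 and 7.2 CPM after 1 h, 5.62, 5.67 and 5.54 CPM after 6 h and 8.36, 8.43 and 7.96 CPM after 24 h, the single member whose 6 h libraries all lay below its 1 h libraries. The pseudogene 2700099C18Rik and Tmem255a, a membrane protein, had ratios of 1.27 and 1.28 after 6 h.

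**Figure D3:**
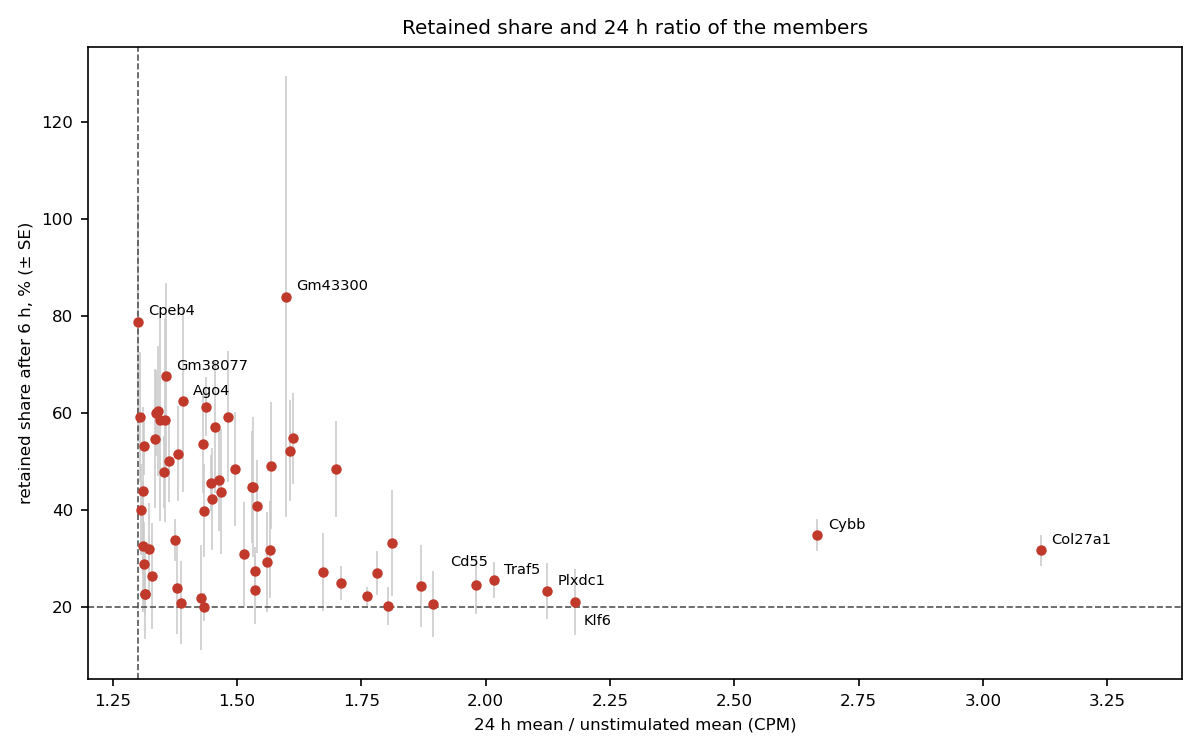
Retained share after 6 h in percent, with its standard error, against the ratio of the 24 h to the unstimulated mean for 63 members, with dashed lines at 20% and at a ratio of 1.3. The 5 plotted members with a ratio of 2 or more have shares from 21% to 34.9%, and the wide bar of Gm43300 stands for a standard error of 45.5.

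Values near the limits differed little. Atp6v1a, Trim5 and Prodh were just inside the lower limit of the share at 20.1%, 20.3% and 20.6%, and Lgals9, Pde4b and Apobec3 just outside at 18.4%, 18.4% and 17.8%. Cpeb4, Tspan32 and Gphn were just inside the 24 h limit at 1.301, 1.305 and 1.307, and Phf21a, Phf6 and Elk4 just outside at 1.296, 1.294 and 1.294.

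The members were tested in a fit across 14299 genes (edgeR's quasi-likelihood test with Benjamini-Hochberg adjustment, called at an adjusted p under 0.05). After 1 h exposure Cybb, Pim1, Lpin2, Acbd3 and A630072M18Rik were called higher than in unstimulated cells, 5 of 64, and 0 were called lower (26 of the 64 had an unadjusted p under 0.05, and DESeq2 called 7). Of all genes 0.273% were called higher and 0.147% lower. The unstimulated libraries helped to choose the members, which favours genes with low unstimulated values. Cybb was higher by 0.40 ± 0.07 on the log2 scale (SE; edgeR adjusted p = 0.0025), Pim1 by 0.37 ± 0.06 on the log2 scale (SE; edgeR adjusted p = 0.00304) and A630072M18Rik by 0.47 ± 0.11 on the log2 scale (SE; edgeR adjusted p = 0.0473). Lpin2 was higher by 0.25 ± 0.05 on the log2 scale (SE; edgeR adjusted p = 0.0175) and Acbd3 by 0.21 ± 0.05 on the log2 scale (SE; edgeR adjusted p = 0.0303). In each of these 5 the 1 h libraries all lay above the unstimulated ones.

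The 1 h calls rested on few libraries. The count of 5 dropped to 1 when unstimulated replicate 1 was left out and to 3 when unstimulated replicate 3 was. It was 2, 3 and 2 when the 1 h replicates 1, 2 and 3 were left out in turn. The call of Cybb was lost without unstimulated replicate 1 (adjusted p = 0.0546) and that of Pim1 without 1 h replicate 1 (adjusted p = 0.0672), each the single loss among the alternatives tried. The call of A630072M18Rik was lost in 14 alternatives, that of Acbd3 in 7 and that of Lpin2 in 5.

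Over the 64 members the ratio of the 1 h to the unstimulated mean had a median of 1.08, against 0.992 over genes at 5 CPM or more, and it was above 1 in 57. In 19 members (29.7%) the 1 h libraries all lay above the unstimulated ones, which held for 6.4% of genes at 5 CPM or more, and in 0 they all lay below, against 9.57%. Klf6, Jak3, Dgka, Nxpe3, Fam169b, Tmem255a and Apobec2 had a 1 h mean of 0.921 to 0.998 times the unstimulated mean. The 1 h mean lay at a median of 16.6% of the way from the unstimulated to the 24 h mean. The rule favours genes with low unstimulated libraries, so an excess of 1 h over unstimulated levels follows in part from the choice. The 16.6% also rests on the unstimulated and 24 h means that chose the members.

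**Figure D4:**
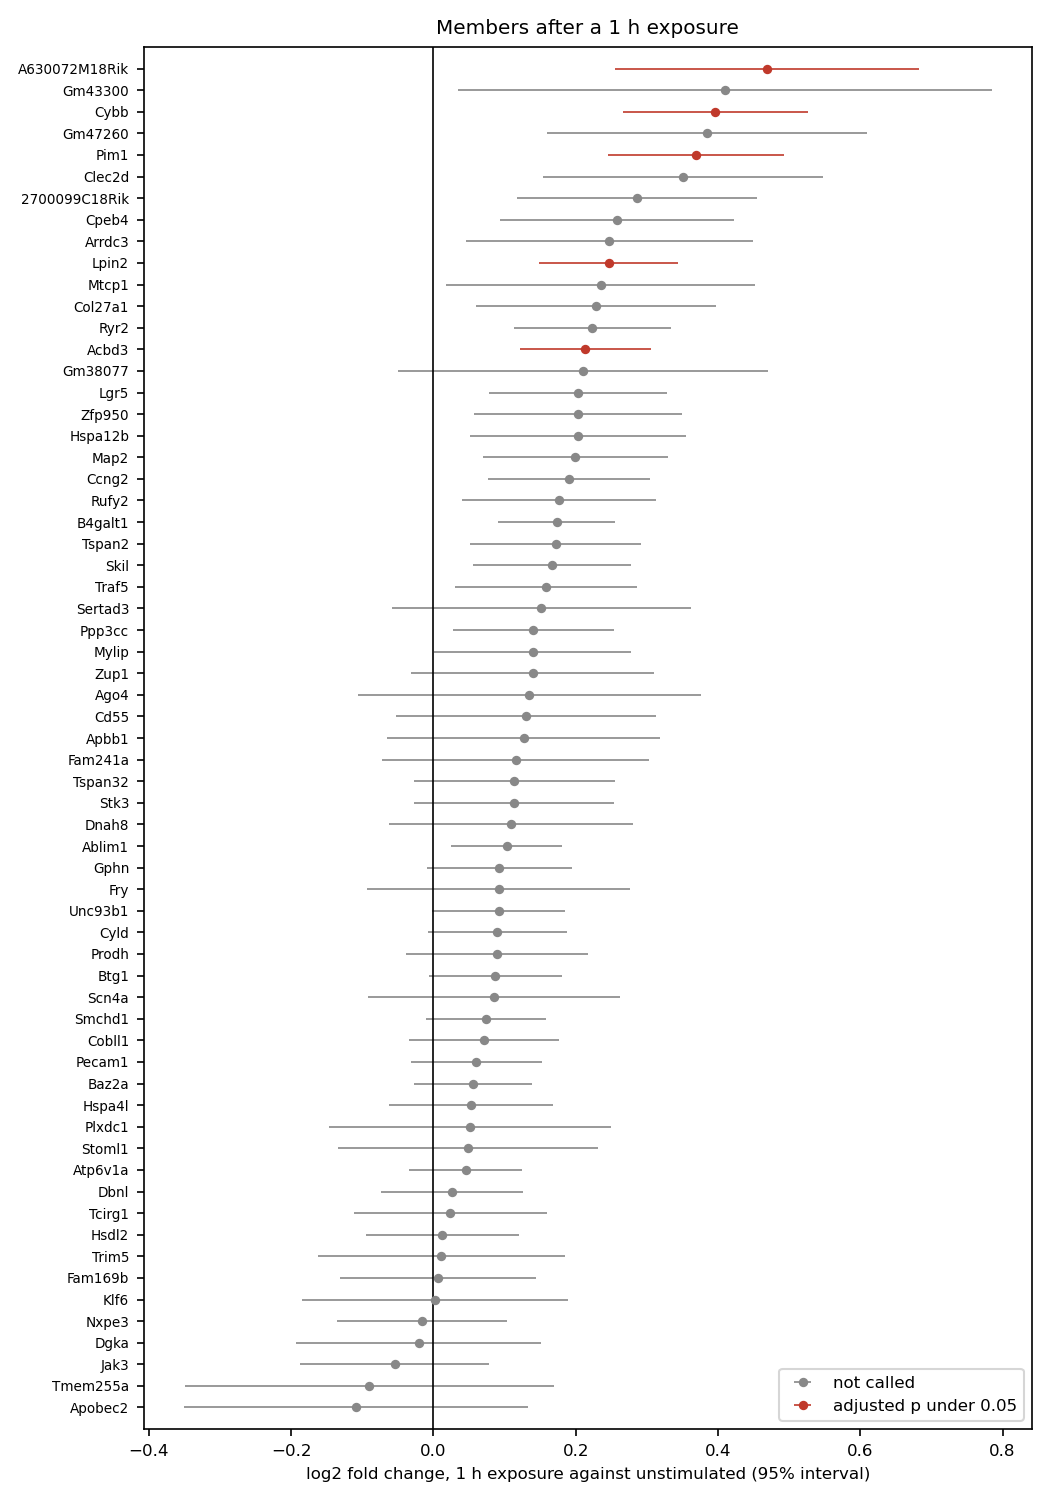
Log2 fold change of 63 members after 1 h exposure against unstimulated cells (points) with 95% intervals by a normal approximation (bars), called members in red. A630072M18Rik, Cybb and Pim1 have the largest called changes, at 0.47, 0.4 and 0.37.

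Between 6 h and 1 h cells, both of which had IFN-γ and then antibody, Col27a1 was the single member called, where 0.0839% of all genes were called higher. It was higher after 6 h by 0.51 ± 0.08 on the log2 scale (SE; edgeR adjusted p = 0.00282), with all 3 of its 6 h libraries above all 3 of its 1 h libraries. The 6 h libraries had helped to choose it, and the adjusted p was 0.0589 without 1 h replicate 1. With harvest at 24 h in both groups, antibody was present for longer in 1 h cells. Length of exposure and time since antibody cannot be told apart here. Ablim1 was higher by 0.17 ± 0.04 on the log2 scale (SE; edgeR adjusted p = 0.142) and Cybb by 0.26 ± 0.07 on the log2 scale (SE; edgeR adjusted p = 0.175), neither of them called. For Pim1 the difference was 0.05 with a 95% interval, by a normal approximation, of -0.07 to 0.17. In 30 members the 6 h libraries all lay above the 1 h libraries, which held for 5.63% of genes at 5 CPM or more, and the median difference was 0.12 on the log2 scale. Since the members were chosen for high 6 h libraries, an excess over those genes follows in part from the choice. A630072M18Rik was the 1 member with the reverse order, which held for 3.99% of those genes.

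After 24 h 61 members were called higher than after 1 h, where 10.2% of all genes were, and the median difference was 0.41 on the log2 scale. The rule chose the members for a high 24 h mean, so this count is largely set by the choice and is no independent evidence. The 3 not called were Cpeb4, Gm38077 and Gm43300. The 24 h libraries lay above all 1 h libraries in 62 members, against 21.7% of genes at 5 CPM or more. Cybb, Acbd3, Traf5 and Ablim1 had all 12 libraries in the order of exposure, 4 of 64 against 0.19%. In 54 members the 4 group means followed that order, against 8.15% of genes at 5 CPM or more, and in 57 the 24 h libraries lay above all 6 h libraries, against 17.8%. All 4 of these counts are in large part set by the rule.

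In the contrasts that the rule itself used, the fit called 21 members higher after 6 h than in unstimulated cells and did not call the other 43, with 1.17% of all genes called higher. It called 64 higher after 24 h, with 10.3% of all genes, and 49 higher after 24 h than after 6 h, with 8.92%. Ablim1, Acbd3, B4galt1, Col27a1, Cybb, Pim1, Ryr2 and Traf5 were called after 6 h in all 12 fits that left out 1 library. The count of 21 fell to 9 when unstimulated replicate 1 was left out, and it was 13, 10 and 23 when the 6 h replicates 1, 2 and 3 were left out in turn.

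The pathway lists held few of these genes. Of 21 genes of the IFN-γ receptor, its signalling and its feedback 0 were members, and 0 were called after 6 h by edgeR (6 had an unadjusted p under 0.05, and DESeq2 called 1), while 12 were called higher and 1 lower after 24 h. Irf1 differed by 0.19 ± 0.06 (log2, SE; edgeR adjusted p = 0.109) after 6 h and 4.39 ± 0.06 (log2, SE; edgeR adjusted p = 1.07e-29) after 24 h. Of 36 tested antiviral and nuclear-body genes 0 were members, 3 were called higher after 6 h (Iigp1, Ifi47 and Tgtp2) and 32 after 24 h. The list medians after 24 h were 0.54 and 1.04 on the log2 scale, against 0.55 for the members, and after 6 h they were 0.05 and 0.04, against 0.27 for the members and 0 over all genes. The members' medians were set by their selection. The counts of 0 members also follow in part from the rule. Its lower limit on the retained share leaves out genes whose rise after 6 h is small beside that after 24 h. Irf1, at 0.19 and 4.39 on the log2 scale, is such a gene. The antiviral list was also drawn outside the families that the rule leaves out. These counts are therefore no independent evidence that the members stand apart from the pathway.

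Of 21 genes of growth restraint and p53 response Btg1, Klf6 and Ccng2 were members, 2 were called higher after 6 h (Btg1 and Ccng2) and 13 after 24 h. Of 28 tested B cell genes 0 were members, with Irf4, Bach2 and Foxo1 called higher and Spib lower after 6 h, and 6 higher and 12 lower after 24 h. Of all genes 0.427% were called lower after 6 h and 8.35% after 24 h, beside the 1.17% and 10.3% called higher. Of 19 tested lysosomal genes Tcirg1 was a member. In that list edgeR called Ctsh lower and 0 higher after 6 h (7 had an unadjusted p under 0.05, and DESeq2 called 2), and 6 were called higher and 1 lower after 24 h.

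Exon length had a median of 5381 bases over the members (range 1213 to 29729), 4664 over genes at 5 CPM or more and 4326.5 over the other genes that met the 24 h criterion. The last set holds no gene that the rule leaves out by name or family. GC content had medians of 46.3%, 48.9% and 47.5% in the same order. These medians were not tested against each other. Across 14281 genes, which are not independent replicates, the change after 6 h against unstimulated cells went with exon length (Spearman's rho of 0.134) and with GC content (-0.189), and the change after 1 h did so with 0.164 and -0.2. For the change after 24 h against unstimulated cells the values were 0.0737 and -0.16. Between 6 h and 1 h cells the values were -0.00158 and -0.0171. They were -0.00801 and -0.0393 between 24 h and 1 h cells, and -0.0102 and -0.0359 between 24 h and 6 h cells. With the length trend removed from each library, 63 genes met the rule, 54 of them members, and with the GC trend removed 61 did, 51 of them members. The part of these trends in the members' values was not tested. Col27a1, Cybb, Pim1, Acbd3, Traf5, Ryr2 and Ablim1 were among the 34 members that met the rule with either trend removed and in all 9 selections that left out an unstimulated, 6 h or 24 h library.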

How the data were processed

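Polyadenylated RNA of 12 libraries was sequenced from both ends after preparation with a stranded kit, per the labels' protocols. The authors deposited raw counts per gene, whole numbers that were used as deposited. The submitters' processing notes name the mm10 build, Picard, the aligner STAR 2.5.2a and the counter featureCounts 1.4.3-p1. Neither annotation release nor strand setting is given in the sources used here. Of the genes with 1 to 20 counts, 69.9% to 73.9% had an even count in each library, as when both mates of a pair are counted.

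Replicate libraries of a group were not copies of one another, by chi-square statistics of 2.41 to 7.88 per degree of freedom. Counts were fitted with edgeR 4.0.16 in R 4.3.3 (filterByExpr, trimmed mean of M values scaling, robust quasi-likelihood test) over all 12 libraries and 14299 genes, and p-values were adjusted by Benjamini-Hochberg. The procedure was tested on simulated data. DESeq2 1.42.0, limma-voom (limma 3.58.1) and other settings were alternatives. Standard errors of retained shares were propagated from the SD of the 3 libraries of each group. Gene positions and exon lengths came from GENCODE M21, and windows at gene starts from RefSeq.

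Values of 1 member, which the figures leave out, and of some listed genes are not reported here. Members and gene lists were chosen with earlier results of these data known. Genes named in the text were the 12 members with the largest ratio after 6 h and after 24 h. The 6 with the largest share among those at a 24 h ratio of 2 or more were also named. So were members called after 1 h against unstimulated cells or between 6 h and 1 h, members on a pathway list, and genes beside a limit. Other genes and the grouping by role were chosen after their values were seen, among them Unc93b1, Jak3, Cyld, Ppp3cc, Skil, Pecam1, B4galt1, Ryr2 and Ablim1. Summed T and natural killer cell markers were 0.693 to 1.43 CPM, and erythroid and platelet markers 0.275 to 0.977 CPM.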

Additional observations from a re-analysis of the deposited data

Results flagged for a closer look

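Col27a1 was singled out because the difference between 6 h and 1 h exposure, groups that both received IFN-γ and antibody, passed the test across all genes. Its log2 difference was 0.51 (edgeR's quasi-likelihood test, adjusted p = 0.00282), and its 6 h libraries all lay above its 1 h libraries. The 6 h libraries had entered the choice of members, and the call was lost without 1 h replicate 1 (adjusted p = 0.0589). The 6 h and 1 h groups also differed in the time from antibody to harvest, which cannot be told apart from exposure.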

How the results depend on the processing

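The number of genes meeting the rule was 123 with a mean of at least 1 CPM, 28 with a 24 h ratio of at least 1.5 and 41 with a share of at least 0.3, and 59 to 118 when 1 library was left out, the highest without unstimulated replicate 2. Members called after 1 h against unstimulated cells numbered 10 with every gene that had a count and 2 at an adjusted p under 0.01, and 1 to 7 with 1 library left out. After 6 h against unstimulated cells they numbered 34 with DESeq2, 32 with every counted gene, 13 in a fit to the 6 libraries compared and 10 at an adjusted p under 0.01, and 9 to 23 with 1 library left out. Between 6 h and 1 h they numbered 3 with DESeq2, 2 with every counted gene and 0 to 2 with 1 library left out. The ranges were 61 to 64 for 24 h against unstimulated cells, 54 to 61 against 1 h and 43 to 51 against 6 h.

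Libraries with the same number in different groups did not deviate together (correlations of -0.0656 to 0.0618), so the numbers were not taken as pairs. With the replicate number as a block, 5, 25 and 64 members were called after 1 h, 6 h and 24 h against unstimulated cells, 1 between 6 h and 1 h, 60 between 24 h and 1 h and 50 between 24 h and 6 h. Halving the counts to read pairs, chosen after seeing the data, gave 4, 24, 64, 1, 61 and 49 in the same order. Over all genes, 60 were called after 1 h and 228 after 6 h, against 128 and 374 with DESeq2, 174 and 413 with every counted gene, 104 and 95 in fits to the 6 libraries compared, and 21 and 80 at an adjusted p under 0.01. Between 6 h and 1 h 14 were called, against 34, 36, 9 and 8 in the same settings. Among the retained shares of the named members, 350 of the recomputed values moved by less than the spread between libraries (1 SD). Leaving out 1 of 3 libraries can hardly move a share by that much, so this count is largely set in advance. It is no measure of stability. The share of Lpin2 moved to 40.5% with the length trend removed. No direction was reversed among the values recomputed under the alternatives, which were the counts above, the retained shares of the named members, and the fold changes of the named members called after 1 h against unstimulated cells, between 6 h and 1 h, or between 24 h and 1 h. The causes of these differences were not tested. The lowest member count was 184, and 3 libraries a group limit the precision.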

Other observations

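At the upper limit of the retained share, 7 genes met the other criteria but had a 6 h mean above the 24 h mean, and so were no members. They were Rag1, Cacna1e, Spata1, Sspn, Map3k9, Gm13919 and Gm42870. Rag1, a recombinase of antigen receptor genes, had means of 232.7 CPM in unstimulated cells, 361.8 CPM after 6 h and 319.4 CPM after 24 h. Cacna1e, a calcium channel subunit, had 4.56, 9.08 and 8.33 CPM in the same order. They are given without a test.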
